A study of Homo sapiens with 6 samples.

Results

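The mitotic genes are 50 genes, chosen by name, whose products carry a cell through division. All 50 were found among the 61487 gene IDs of the count table, and all 50 stood among the 16591 genes with enough counts to be tested. Polyadenylated RNA was sequenced from H2170, an established human lung squamous cell carcinoma line grown in DMEM with serum. IDRmut cells (2 libraries) expressed a GFP fusion of ACK1 that bears the change named IDRmut, WT cells (2 libraries) the wild-type ACK1 fused to GFP, and Control cells (2 libraries) GFP. ACK1 is a tyrosine kinase of the cytoplasm, encoded by TNK2, and the study asked which genes its condensates regulate. What IDRmut alters in the protein, whether the cells were pools or clones, and whether the 2 libraries of a group came from separate cultures are not given in the labels, so the p-values rest on a spread between libraries that may be technical.

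Most of these genes are transcribed in the G2 and M phases of the cell cycle. The MuvB complex joins B-Myb and then FOXM1 at their promoters, through DNA elements called CHR (cell cycle genes homology region), often with NF-Y bound at nearby CCAAT boxes. Their products act in sequence: cyclin-dependent kinase 1 starts mitosis, condensins compact the chromosomes, kinetochores attach them to the spindle, a checkpoint holds the anaphase-promoting complex until all are attached, and the cytokinesis machinery parts the daughter cells. In tumour cells the level of these transcripts generally tracks proliferation. In bulk RNA, fewer cells in G2 and mitosis and less of these transcripts per cell cannot be told apart.

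TNK2 (ENSG00000061938, chr3:195863364-195911945, GRCh38, minus strand), the gene of the introduced kinase, was read at 1762 and 1455 CPM in IDRmut, against 3514 and 3613 CPM in WT and 41.1 and 43.1 CPM in Control. CPM here are counts normalised to the TMM-scaled size of each library. It was far above Control in both ACK1 groups and lower in IDRmut than in WT, at a log2 fold change of -1.15 ± 0.058 (± SE, as for all log2 fold changes below). The IDRmut change and this lower ACK1 transcript level cannot be told apart in any comparison of IDRmut with WT below.

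Library totals were 20346572 and 21922477 counts in IDRmut, 20033289 and 33540998 in WT, and 20154935 and 19128111 in Control. Counts of replicate libraries varied beyond sampling noise (mean chi-square 3.73 over genes in IDRmut, 1.55 in WT, 1.70 in Control), and each library was kept as a sample. Of the squamous markers, 6 of 7 passed the filter, and their summed level was 1361 to 1483 CPM in IDRmut, 949 to 975 in WT and 1847 to 1855 in Control, while the desmosomal PKP1 had 1 to 4 counts per library. KRT14 (12988 to 27876 counts) and SOX2 (4759 to 8062 counts) made up most of that sum; of the 6 genes, 4 were called higher and 2 lower in IDRmut vs Control, and all 6 higher in IDRmut vs WT. Of 5 general epithelial markers 3 passed, with sums of 76.5 to 85.5 CPM in IDRmut, 39.3 to 40.1 in WT and 14.8 to 15.98 in Control, while the epithelial defining genes EPCAM (0 to 4 counts) and CDH1 (0 to 3 counts) were at or near 0. Of 6 fibroblast markers 4 passed, with sums of 852 to 912 CPM in IDRmut, 668 to 677 in WT and 821 to 839.6 in Control; nearly all of it was COL1A2 (13590 to 23050 counts), and DCN and LUM had 0 to 5 counts. Of 5 endothelial markers 4 passed, with sums of 99.0 to 102 CPM in IDRmut, 50.8 to 52.8 in WT and 219 to 226 in Control, and PECAM1 had 0 to 7 counts while CDH5 had 801 to 4146. No immune marker of 5 passed, and CD3E had 0 counts in every library. These marker sums differed between the groups, and their part in the results below was not tested. The identity of the line was taken from the labels and was not tested.

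The promoters of these genes carry the letters of the 2 elements named above more often than other promoters do. The windows are those of RefSeq on GRCh38.p14, each 300 bases from 250 before to 50 after a gene's start, and 42 of the 50 genes had one. A match was TTTGAA or TTCGAA for CHR and CCAAT for NF-Y, on either strand; TTCGAA reads the same on both strands. A CHR match lay in 29 of 42 mitotic windows (69.0%), against 11.4% of the 11382 windows of other and mitotic genes tested and 16.4% of all 35116 windows. A CCAAT match lay in 32 of 42 (76.2%), against 36.9% and 34.6% in those sets, and both lay in 24 (57.1%), against 5.01% and 6.38%. The 39 CHR matches centred close to the start, at a median of -26, with 29 of them from -50 to 50, and the 66 CCAAT matches lay farther upstream, at a median of -72.

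The windows below belong, for each step of mitosis, to the member with the smallest p between IDRmut and WT that has a window. They are written 5′ to 3′ on the gene's strand, with CHR and CCAAT matches (or their reverse complements) in capitals. They lie at chr10:128126374-128126673 (MKI67, minus strand), chr5:138338306-138338605 (CDC25C, minus), chr4:17810729-17811028 (NCAPG, plus), chr4:103198294-103198593 (CENPE, minus), chr6:33391573-33391872 (KIFC1, plus), chr2:110678014-110678313 (BUB1, minus) and chr7:36389612-36389911 (ANLN, plus).
MKI67: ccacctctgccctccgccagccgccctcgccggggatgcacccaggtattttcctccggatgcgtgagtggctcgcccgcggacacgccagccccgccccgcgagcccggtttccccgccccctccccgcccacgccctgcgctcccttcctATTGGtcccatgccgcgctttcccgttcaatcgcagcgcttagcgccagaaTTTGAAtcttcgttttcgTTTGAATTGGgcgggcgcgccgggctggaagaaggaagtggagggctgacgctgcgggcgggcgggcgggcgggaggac
CDC25C: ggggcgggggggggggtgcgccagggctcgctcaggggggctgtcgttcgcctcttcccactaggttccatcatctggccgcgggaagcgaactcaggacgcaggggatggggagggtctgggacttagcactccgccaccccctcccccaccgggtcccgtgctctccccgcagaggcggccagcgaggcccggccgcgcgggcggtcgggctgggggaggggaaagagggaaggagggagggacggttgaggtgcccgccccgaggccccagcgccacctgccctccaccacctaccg
NCAPG: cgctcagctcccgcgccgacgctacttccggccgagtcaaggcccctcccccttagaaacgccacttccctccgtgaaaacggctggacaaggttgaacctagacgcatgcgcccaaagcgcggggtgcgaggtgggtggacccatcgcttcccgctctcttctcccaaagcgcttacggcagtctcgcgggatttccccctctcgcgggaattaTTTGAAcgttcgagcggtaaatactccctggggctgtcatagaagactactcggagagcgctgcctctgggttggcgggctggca
CENPE: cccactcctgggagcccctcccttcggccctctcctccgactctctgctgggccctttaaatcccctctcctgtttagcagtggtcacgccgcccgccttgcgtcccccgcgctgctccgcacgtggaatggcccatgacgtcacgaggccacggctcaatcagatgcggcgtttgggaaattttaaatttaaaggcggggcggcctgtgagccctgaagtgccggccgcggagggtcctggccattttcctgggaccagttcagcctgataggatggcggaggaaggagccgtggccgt
KIFC1: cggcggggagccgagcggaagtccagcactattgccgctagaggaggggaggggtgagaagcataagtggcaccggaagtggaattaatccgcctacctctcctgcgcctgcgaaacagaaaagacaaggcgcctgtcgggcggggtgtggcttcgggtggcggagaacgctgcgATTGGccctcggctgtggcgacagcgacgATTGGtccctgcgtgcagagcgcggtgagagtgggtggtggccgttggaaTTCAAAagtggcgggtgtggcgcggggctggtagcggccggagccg
BUB1: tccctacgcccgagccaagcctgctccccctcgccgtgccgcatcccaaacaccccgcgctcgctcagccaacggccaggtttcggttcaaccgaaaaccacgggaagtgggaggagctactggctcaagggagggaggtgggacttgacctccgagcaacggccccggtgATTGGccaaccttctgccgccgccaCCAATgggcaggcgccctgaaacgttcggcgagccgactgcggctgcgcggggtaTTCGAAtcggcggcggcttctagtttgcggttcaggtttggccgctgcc
ANLN: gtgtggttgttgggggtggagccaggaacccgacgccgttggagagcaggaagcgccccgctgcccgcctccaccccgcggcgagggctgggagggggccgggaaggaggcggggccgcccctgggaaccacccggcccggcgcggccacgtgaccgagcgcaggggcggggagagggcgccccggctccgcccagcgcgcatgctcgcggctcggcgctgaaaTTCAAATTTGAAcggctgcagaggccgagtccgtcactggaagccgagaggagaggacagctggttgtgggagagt
In MKI67 the CHR at -29 and the CCAAT match at -24 share a base, and in ANLN 2 CHR matches stand side by side at -26 and -20. KIFC1 and BUB1 each hold 2 CCAAT matches upstream of a CHR at 4 and 1. The windows of CDC25C and CENPE hold neither set of letters, which says only that these letters are not in this window.

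**Figure D1:**
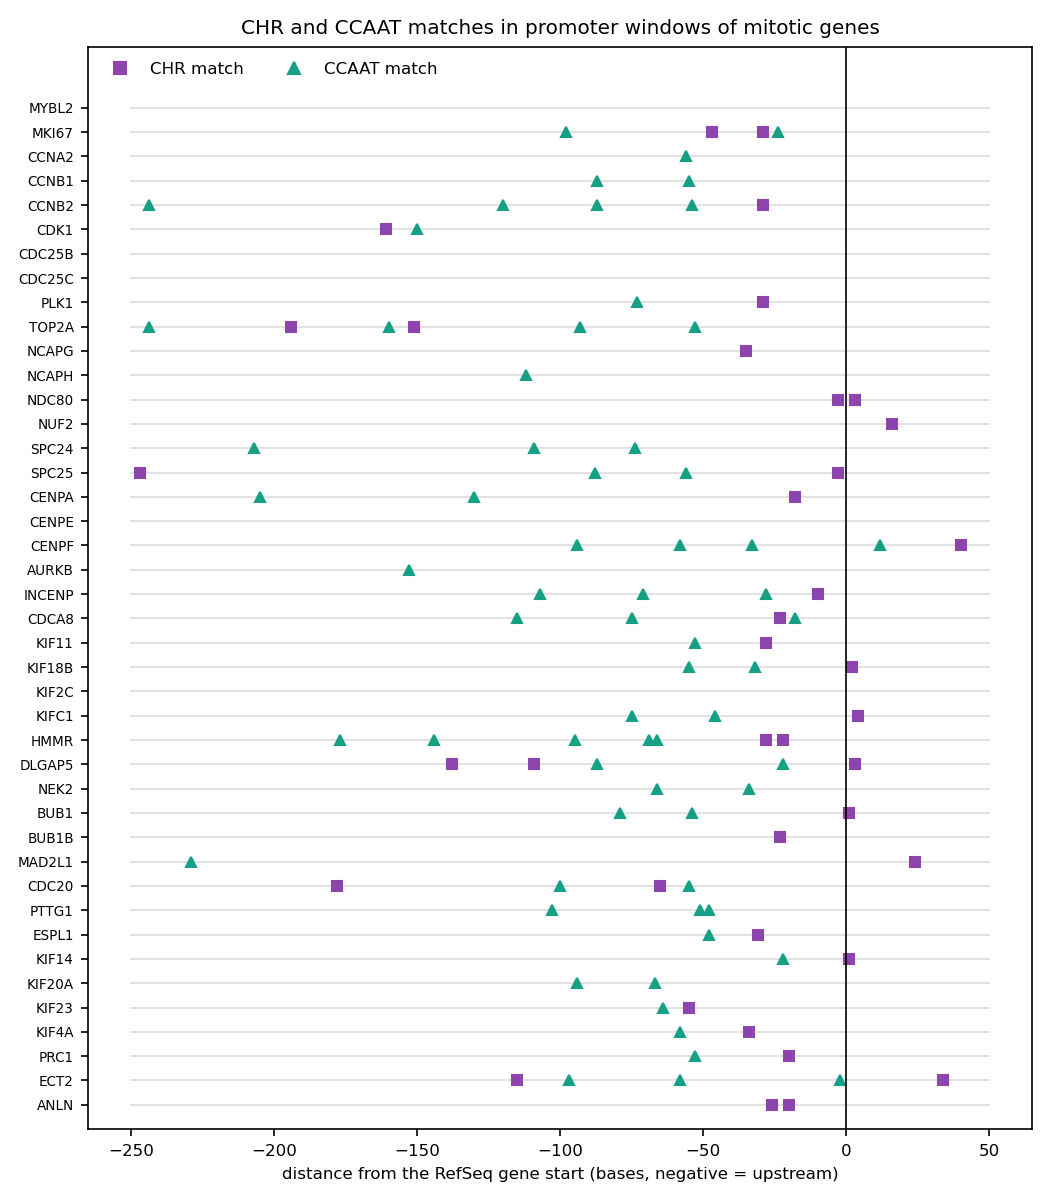
Position of CHR (squares) and CCAAT (triangles) matches in the promoter windows of 42 mitotic genes, in bases from the RefSeq start (negative upstream). Each row is a gene; CHR matches have a median of -26 and CCAAT matches of -72.

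Members with and without a CHR match both had negative medians in the IDRmut comparisons. In IDRmut against WT, the 29 members with one had a median log2 fold change of -0.29 with 26 called lower, and the 13 without had a median of -0.27 with 10 called lower and 1 higher. In IDRmut against Control, the medians were -0.28 with 24 called lower and -0.20 with 8 called lower. For CCAAT, the 32 members with a match had medians of -0.28 against WT and -0.24 against Control, and the 10 without had -0.32 and -0.31. No test was made of either split.

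Genes of every step of division were lower in IDRmut than in WT. By edgeR's quasi-likelihood test at an adjusted p under 0.05, 42 of the 50 were called lower, where 14.2% of all genes tested were, and 1 was called higher, where 12.3% were. The median log2 fold change of the 50 was -0.28, against -6.8e-04 over all genes, and single members spanned -0.60 to 0.14. Both IDRmut libraries lay below both WT libraries for 44 members, where 31.4% of all genes did so, and above them for 2, where 30.1% did.

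IDRmut cells were also lower than Control cells in most of them. Against Control, 38 members were called lower (15.9% of all genes) and 1 higher (15.6%), with a median of -0.25 against 0.0040 over all genes, and both IDRmut libraries lay below both Control libraries for 42 members (31.3% of all genes) and above them for 2 (32.0%). For 39 members both IDRmut libraries lay below all of the other 4 libraries, which held for 15.2% of all genes. The IDRmut comparisons share the IDRmut libraries, and the comparisons with Control share the Control libraries, so they are not independent.

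WT cells differed from Control in both directions, with the share called lower near that of all genes under TMM scaling. Of the 50, 12 were called higher (24.0%, against 17.4% of all genes) and 9 lower (18.0%, against 17.6%). Their median was -0.018, against 0.0017 over all genes. Both WT libraries lay above both Control libraries for 18 members (34.6% of all genes) and below them for 23 (34.7%). The sign of that median was not fixed, at 0.014 with upper-quartile scaling and 0.046 with library totals, and the number called lower was 3 with library totals, 17 with offsets for GC content and length, and 5 to 17 when single libraries were left out. With library totals the WT calls of MKI67, CDK1, INCENP, KIFC1, KIF4A and UBE2C did not pass, and DESeq2 ended those of FOXM1, CDC25C, KIFC1, TPX2 and TTK, leaving 8 higher and 8 lower, upper-quartile scaling those of KIFC1 and KIF4A, and no filter those of CDC25C, KIFC1 and KIF4A. The number called higher in WT vs Control was 16 with upper-quartile scaling and 18 with library totals. Of all genes called in WT vs Control, 58.6% and 67.2% were higher under those scalings, against 49.8% with TMM. The median in both IDRmut comparisons stayed negative under every scaling tried.

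**Figure D2:**
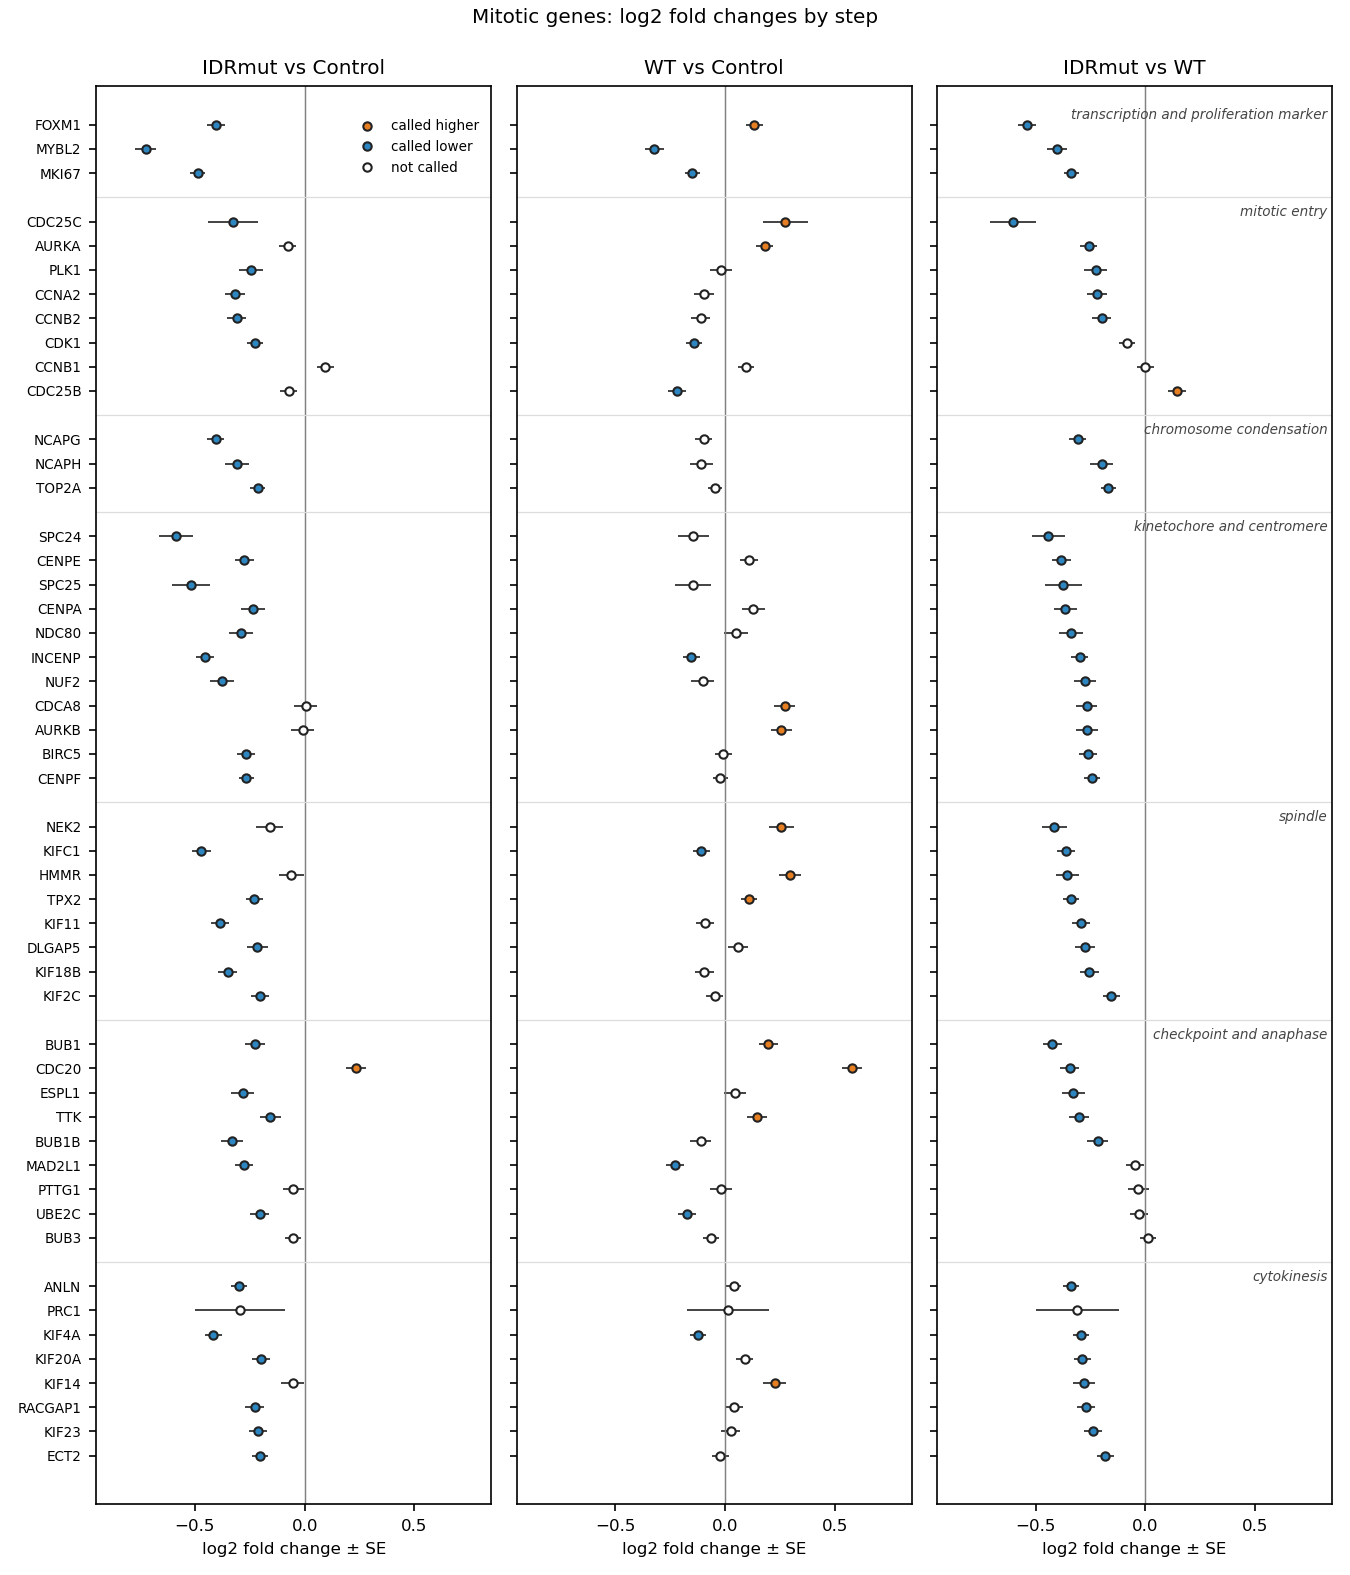
Log2 fold change ± SE of the 50 mitotic genes, in rows by step, for IDRmut vs Control, WT vs Control and IDRmut vs WT; filled points were called at an adjusted p under 0.05 by edgeR's quasi-likelihood test. Called members lie left of 0 in both IDRmut panels, apart from CDC20 against Control and CDC25B against WT, and on both sides of 0 in the WT panel.

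**Figure D3:**
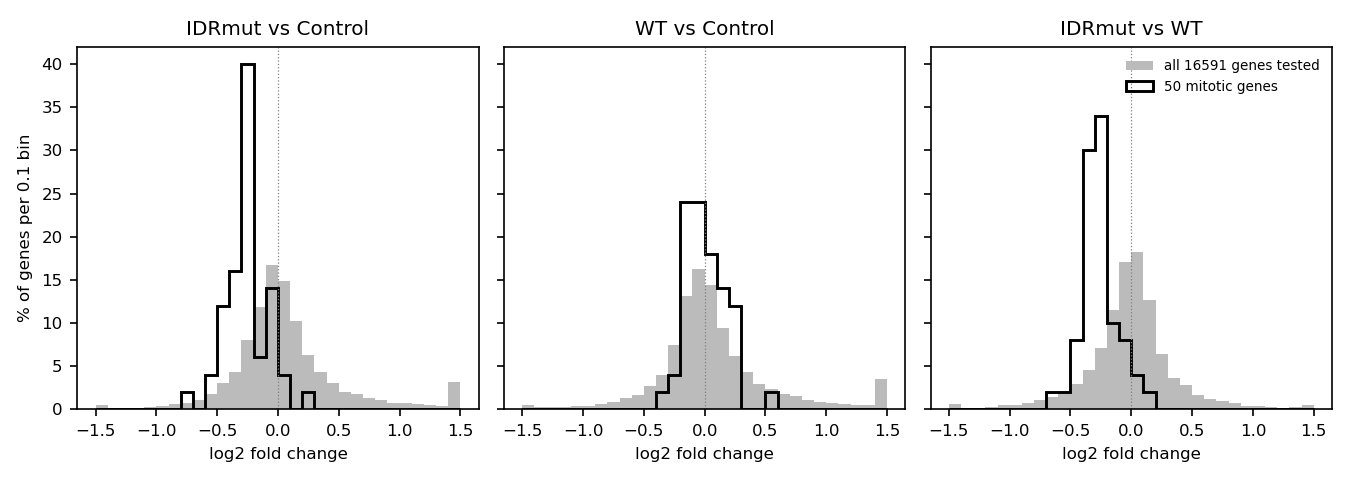
Distribution of log2 fold changes, in bins of 0.1, for all 16591 genes tested (grey) and the 50 mitotic genes (black line), as a share of each set; the end bins of the grey bars also hold values beyond the axis. The mitotic genes centre at -0.25 in IDRmut vs Control, -0.018 in WT vs Control and -0.28 in IDRmut vs WT.

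Added up, the 50 genes made 7244 and 7399 CPM in IDRmut, 8646 and 8608 in WT, and 8755 and 8781 in Control. The IDRmut libraries lay below the other 4 by more than the spread within any group. Within IDRmut, 37 of 50 members were higher in replicate 2, by a median of 0.033 on the log2 scale, against 24 in WT and 26 in Control.

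**Figure D4:**
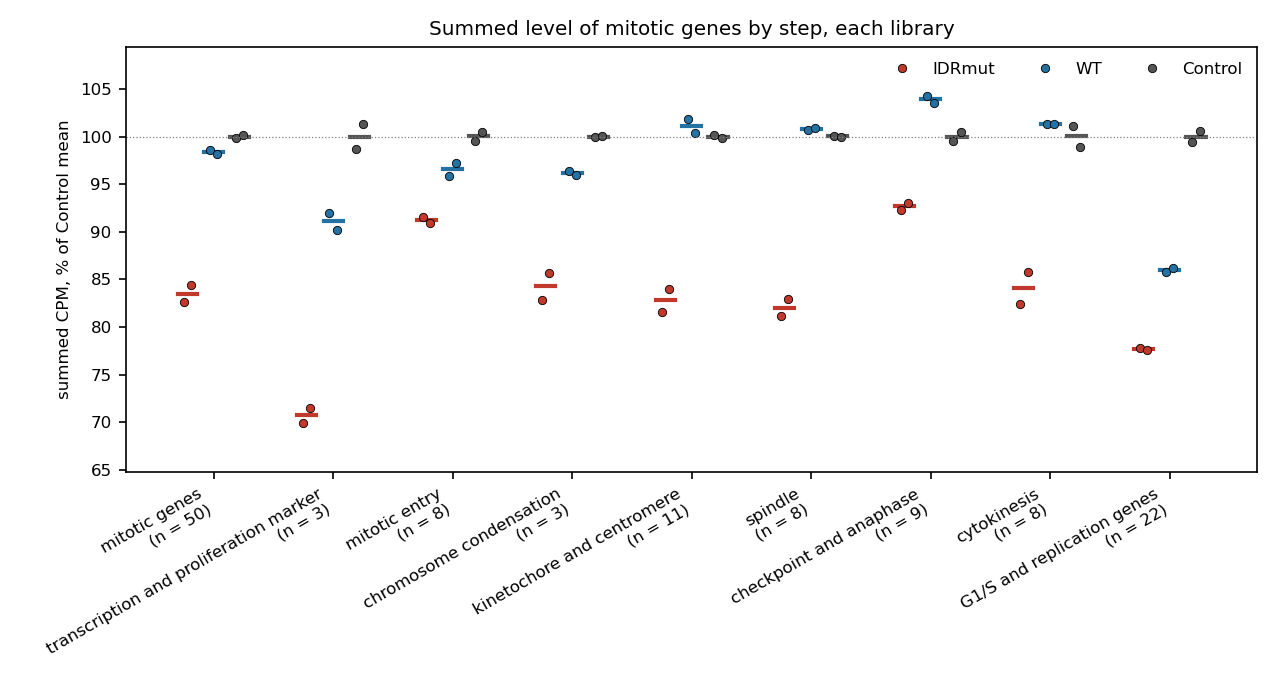
Summed CPM of the mitotic genes, of each step and of 22 G1/S and replication genes, as a percentage of the Control mean; points are libraries and lines group means of 2. Both IDRmut libraries lie below both WT and both Control libraries in every set shown. Both WT libraries lie below both Control libraries for the 50 genes, the transcription, entry and condensation steps and the G1/S and replication genes. They lie above them for the kinetochore, spindle, checkpoint and cytokinesis steps, in cytokinesis at 1459.54 CPM or more against at most 1457.7. The order of WT and Control was read with TMM scaling alone. With library totals the median log2 fold change of the 50 in WT vs Control was 0.046. Sums follow the genes with the highest CPM. MKI67 (mean 1086 CPM in WT, 1205 in Control) made up most of the transcription sum (1343 and 1474). In that step FOXM1 was called higher in WT and MYBL2 lower. TOP2A (971 and 1003) made up most of the condensation sum (1208 and 1256). Of the 50, 23 had a log2 fold change above 0 in WT vs Control with TMM, and 27 below.

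Read per length, the highest level over the 6 libraries belonged to TOP2A, at a mean of 147 CPM per kb of exon, followed by CCNB1 at 95.2 and UBE2C at 87.8. The lowest were CDC25C at 3.11 and PRC1 at 0.54 CPM per kb. PRC1, the microtubule bundler of the central spindle, is uncertain, since 58.4% of its exon bases are overlapped by other genes, among them ENSG00000284946 with 309 to 682 counts per library. Its own libraries overlapped between the groups.

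The regulators of the programme and the proliferation marker all fell in IDRmut. FOXM1 (ENSG00000111206, chr12:2857681-2877155, minus strand), the transcription factor that drives G2 and M genes, stood at 106 and 104 CPM in IDRmut, against 153 and 152 CPM in WT and 138 and 140.5 CPM in Control. Both IDRmut libraries lay below the other 4 and both WT libraries above Control, and the log2 fold changes were -0.54 ± 0.04 (adjusted p = 2.81e-08) for IDRmut vs WT, -0.41 ± 0.041 (adjusted p = 7.89e-07) for IDRmut vs Control and 0.13 ± 0.039 (adjusted p = 0.0132) for WT vs Control. Exons of ITFG2 overlap 15.9% of its bases. The WT call did not pass when any 1 of the WT or Control libraries was left out, at 0.12 to 0.15.

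MYBL2 (ENSG00000101057, chr20:43667019-43716496, plus strand), which encodes B-Myb, had 82.2 and 75.8 CPM in IDRmut, against 104 and 105 CPM in WT and 129 and 132 CPM in Control. The groups formed 3 separate levels, IDRmut lowest and Control highest, and the changes were -0.40 ± 0.047 (adjusted p = 5.36e-06) for IDRmut vs WT, -0.72 ± 0.047 (adjusted p = 3.86e-09) for IDRmut vs Control and -0.32 ± 0.045 (adjusted p = 2.36e-05) for WT vs Control. MKI67, which encodes the proliferation marker Ki-67 that coats mitotic chromosomes, had 843 and 875 CPM in IDRmut, against 1099.5 and 1073 CPM in WT and 1188 and 1221 CPM in Control. It took the same order, at -0.34 ± 0.034 for IDRmut vs WT and -0.49 ± 0.034 for IDRmut vs Control.

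Called counts from here on are read against the shares of all genes called. Those were 14.2% lower and 12.3% higher in IDRmut vs WT. For IDRmut vs Control they were 15.9% and 15.6%, and for WT vs Control 17.6% and 17.4%. Of the 8 genes of mitotic entry, 5 fell and 1 rose in IDRmut vs WT. Against Control, 5 fell and none rose in IDRmut, and 2 rose and 2 fell in WT. Their medians were -0.21, -0.24 and -0.057. CDC25C, a phosphatase that activates CDK1, was the weakest expressed of them per length, with 8.64 and 7.82 CPM in IDRmut, against 12.9 and 12.2 CPM in WT and 9.54 and 11.1 CPM in Control. Its counts were 172 to 416 per library, and exons of FAM53C (903 to 1973 counts) overlap 8.78% of its bases. IDRmut lay below both other groups and WT above Control, and the change was -0.60 ± 0.10 (adjusted p = 0.000313) for IDRmut vs WT. Its calls against Control were near the threshold, at adjusted p of 0.0352 in IDRmut and 0.0436 in WT. The IDRmut call was lost without Control replicate 2 (-0.22) and without IDRmut replicate 2 (-0.26), and also with upper-quartile scaling, library totals, no filter or DESeq2, and the WT call without Control replicate 1 (0.16), WT replicate 1 (0.24) or WT replicate 2 (0.32).

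AURKA, a kinase of centrosomes and spindle poles, had 131 and 129 CPM in IDRmut, against 157 and 155 CPM in WT and 138 and 137 CPM in Control. It fell in IDRmut vs WT, at -0.26 ± 0.038, and rose in WT vs Control, at 0.18 ± 0.038, while IDRmut vs Control was -0.077 ± 0.04 and did not pass. CDC25B, the phosphatase that acts first at the centrosome, was the member called higher in IDRmut than in WT. It had 268 and 252 CPM in IDRmut, against 230.2 and 239.8 CPM in WT and 274 and 274 CPM in Control, higher in both IDRmut libraries than in WT, at 0.14 ± 0.04 (adjusted p = 0.0118). WT was lower than Control, at -0.22 ± 0.04. Without WT replicate 1 the rise in IDRmut vs WT was 0.11 and did not pass.

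CDK1, the kinase that starts mitosis, had 178 and 183 CPM in IDRmut, against 191 and 192 CPM in WT and 214 and 209 CPM in Control. It fell against Control in IDRmut (-0.23 ± 0.038) and in WT (-0.14 ± 0.037). IDRmut vs WT was -0.084 ± 0.037 (adjusted p = 0.114, 95% interval -0.16 to -0.0047). With library totals or with GC and length offsets, 6 entry genes were called lower in IDRmut vs WT, against 5 in the main fit. The WT call was lost without Control replicate 1 (-0.13), WT replicate 1 (-0.14) or WT replicate 2 (-0.15). CCNB1, its cyclin B1 partner, had 245 and 252 CPM in IDRmut, against 244 and 253 CPM in WT and 231 and 235 CPM in Control. It was called in no comparison, with 95% intervals of -0.078 to 0.079 for IDRmut vs WT, 0.014 to 0.17 for IDRmut vs Control and 0.015 to 0.17 for WT vs Control. With upper-quartile scaling or library totals it was called higher than Control in IDRmut (0.13 with either) and in WT (0.13 and 0.16). The other cyclins CCNA2 and CCNB2 fell in IDRmut vs WT, at -0.22 ± 0.045 and -0.20 ± 0.043, as did PLK1, a kinase of centrosomes and kinetochores, at -0.23 ± 0.051.

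All 3 genes of chromosome condensation fell in IDRmut against both WT and Control, with medians of -0.20 and -0.31. In WT vs Control their log2 fold changes, from -0.11 to -0.046, did not pass, although 2 did with GC and length offsets. NCAPG, a condensin I subunit, had 144 and 152 CPM in IDRmut, against 186 and 181 CPM in WT and 195 and 197 CPM in Control, and changed by -0.31 ± 0.04 (adjusted p = 1.85e-05) in IDRmut vs WT. Exons of LCORL overlap 33.1% of its bases. TOP2A, the topoisomerase that untangles sister DNA, had 849 and 879.7 CPM in IDRmut, against 971 and 972 CPM in WT and 1004 and 1001 CPM in Control. Its smaller fall of -0.17 ± 0.033 (adjusted p = 0.000972) in IDRmut vs WT also left the IDRmut and WT libraries apart. NCAPH, the bridging subunit of the same complex, changed by -0.20 ± 0.053, a call that ended under DESeq2 (-0.20) and without WT replicate 1 (-0.18).

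**Figure D5:**
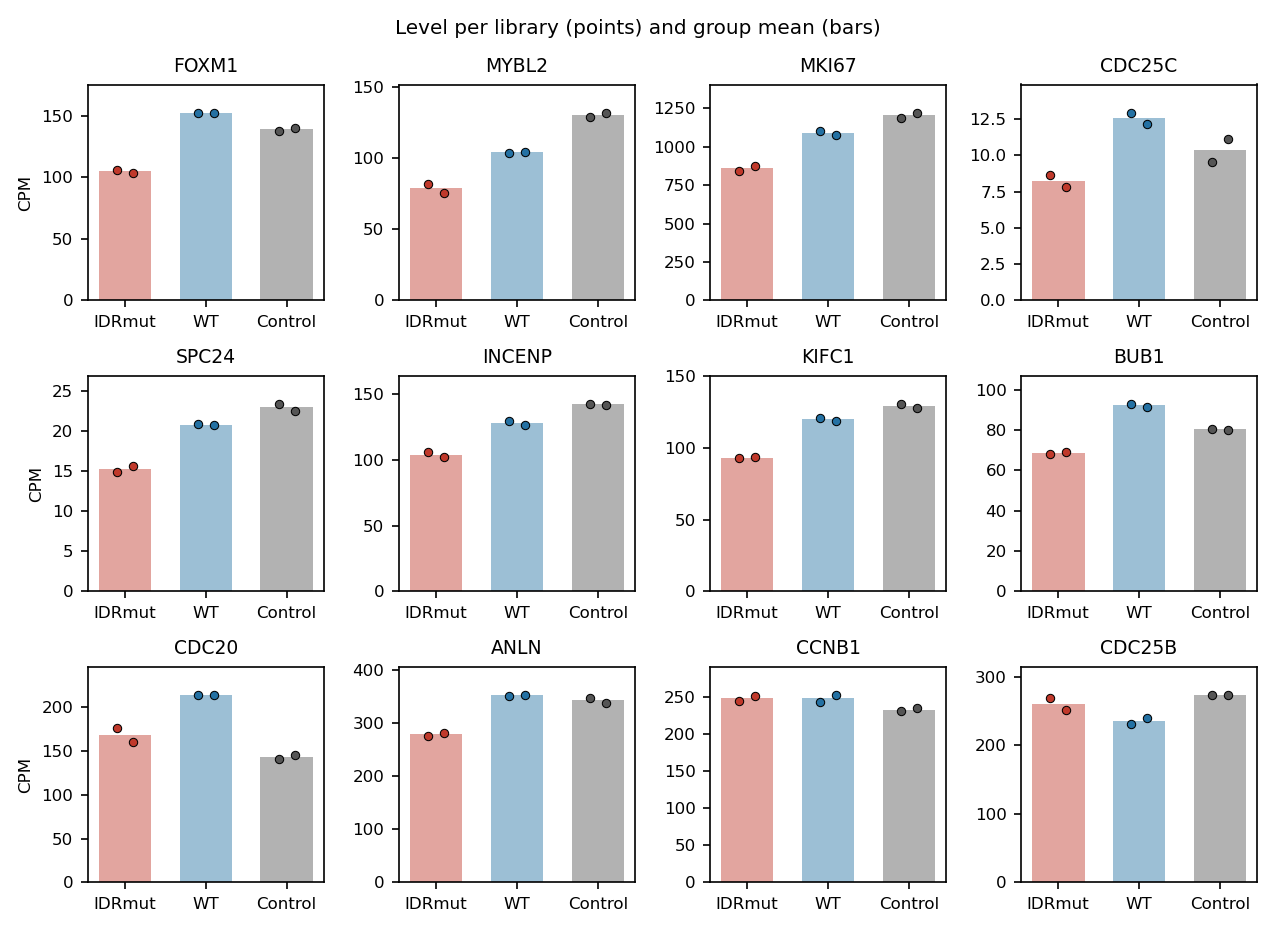
Level of 12 mitotic genes in each library (points, CPM) with the group mean of 2 libraries (bars, from 0). FOXM1, BUB1 and CDC25C are highest in WT, MYBL2, MKI67 and SPC24 are highest in Control, CDC20 is lowest in Control, and CDC25B is lowest in WT.

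Every one of the 11 kinetochore and centromere genes fell in IDRmut vs WT, with a median of -0.30. Against Control 9 of them fell in IDRmut and none rose, with a median of -0.27, and in WT 2 rose and 1 fell. CENPE, the kinesin that carries chromosomes to the spindle equator, had 109.9 and 113 CPM in IDRmut, against 146 and 145 CPM in WT and 139 and 131 CPM in Control, and differed by -0.38 ± 0.042 (adjusted p = 3e-06) between IDRmut and WT. INCENP, the scaffold of the chromosomal passenger complex, had 106 and 102 CPM in IDRmut, against 129 and 127 CPM in WT and 143 and 142 CPM in Control. Its log2 fold changes in IDRmut were -0.30 ± 0.041 against WT and -0.45 ± 0.041 against Control, and its fall in WT vs Control (-0.15 ± 0.04) was lost without Control replicate 1 (-0.15) or WT replicate 2 (-0.14).

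SPC24 and SPC25, which anchor the NDC80 complex to the kinetochore, had the lowest log2 fold changes of this step in IDRmut vs Control. SPC24 had 14.9 and 15.6 CPM in IDRmut, against 20.8 and 20.7 CPM in WT and 23.4 and 22.5 CPM in Control, with changes of -0.44 ± 0.075 (adjusted p = 0.000275) in IDRmut vs WT and -0.59 ± 0.077 (adjusted p = 1.69e-05) in IDRmut vs Control. SPC25 had 13.2 and 15.4 CPM in IDRmut, against 18.5 and 18.7 CPM in WT and 20.04 and 21.1 CPM in Control, with log2 fold changes of -0.37 ± 0.085 and -0.52 ± 0.088 in the same comparisons. The microtubule-binding subunits NDC80 and NUF2 fell in IDRmut vs WT, at -0.34 ± 0.054 and -0.28 ± 0.052.

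AURKB and CDCA8, the kinase and the borealin subunit of the passenger complex, overlapped between IDRmut and Control and were higher in WT. AURKB had 53.5 and 56.3 CPM in IDRmut, against 65.1 and 66.7 CPM in WT and 54.4 and 56.1 CPM in Control. It rose in WT vs Control, at 0.26 ± 0.05, and was lower in IDRmut than in WT, at -0.27 ± 0.049, and the 95% interval for IDRmut vs Control was -0.12 to 0.10. CDCA8 had 77.4 and 74.7 CPM in IDRmut, against 91.6 and 91.4 CPM in WT and 79.2 and 72.3 CPM in Control, with log2 fold changes of 0.27 ± 0.049, -0.27 ± 0.049 and an interval of -0.10 to 0.11 for the same contrasts. BIRC5, their survivin partner, fell in IDRmut vs WT, at -0.26 ± 0.04, and WT vs Control was -0.0074 ± 0.04 and did not pass. The histone CENPA and the large kinetochore protein CENPF fell in IDRmut vs WT, at -0.37 ± 0.052 and -0.24 ± 0.035.

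All 8 spindle genes fell in IDRmut vs WT, with a median of -0.32. Against Control 6 fell in IDRmut (median -0.22), and in WT 3 rose and 1 fell. TPX2, which activates Aurora A on the spindle, had 219 and 219 CPM in IDRmut, against 276 and 277 CPM in WT and 252 and 261 CPM in Control, and changed by -0.34 ± 0.036 (adjusted p = 2.15e-06) in IDRmut vs WT. Its rise in WT vs Control (0.11 ± 0.036) was lost when any 1 of the WT or Control libraries was left out, at 0.081 to 0.14. KIFC1, the minus-end kinesin that gathers extra centrosomes, had 93.04 and 93.5 CPM in IDRmut, against 121 and 119 CPM in WT and 131 and 128 CPM in Control, and changed in IDRmut by -0.36 ± 0.041 against WT and -0.47 ± 0.042 against Control. Its fall in WT vs Control was near the threshold (adjusted p = 0.0464), and was lost when any 1 of the WT or Control libraries was left out, at -0.13 to -0.092.

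HMMR and NEK2 were highest in WT. HMMR, a spindle protein that binds hyaluronan, had 51.9 and 55.1 CPM in IDRmut, against 70.05 and 67.3 CPM in WT and 57.4 and 54.2 CPM in Control. It was higher in WT than in Control, at 0.30 ± 0.052, and lower in IDRmut than in WT, at -0.36 ± 0.052, and the IDRmut and Control libraries overlapped. NEK2, a kinase that separates centrosomes, had 30.5 and 30.8 CPM in IDRmut, against 41.3 and 40.6 CPM in WT and 35.00 and 33.5 CPM in Control. Its change was -0.42 ± 0.057 (adjusted p = 3.67e-05) in IDRmut vs WT, while IDRmut vs Control (-0.16 ± 0.061, adjusted p = 0.0559) did not pass. The kinesins KIF11, KIF18B and KIF2C fell in IDRmut vs WT, at -0.29 ± 0.041, -0.26 ± 0.043 and -0.15 ± 0.04, and DLGAP5, a microtubule stabiliser, changed by -0.27 ± 0.046. Without WT replicate 2 the change of KIF2C was -0.13 and did not pass.

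The checkpoint and anaphase genes were divided. Of 9, 5 fell and none rose in IDRmut vs WT (median -0.22), 6 fell and 1 rose in IDRmut vs Control (median -0.20), and 3 rose and 2 fell in WT vs Control. BUB1, a checkpoint kinase at the kinetochore, had 68.05 and 69.2 CPM in IDRmut, against 93.02 and 91.3 CPM in WT and 80.7 and 80.03 CPM in Control. WT was highest and IDRmut lowest, at -0.42 ± 0.044 (adjusted p = 1.55e-06) between these groups. CDC20 (ENSG00000117399, chr1:43358955-43363203, plus strand), which activates the anaphase-promoting complex, had 176 and 160.3 CPM in IDRmut, against 213 and 214 CPM in WT and 140.5 and 146 CPM in Control. It was higher than Control in IDRmut (0.23 ± 0.046, adjusted p = 0.000846) and in WT (0.58 ± 0.045, adjusted p = 2.15e-08), and lower in IDRmut than in WT (-0.35 ± 0.044, adjusted p = 1.54e-05).

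MAD2L1, the checkpoint protein that holds CDC20, was lower than Control in both ACK1 groups. It had 111 and 114 CPM in IDRmut, against 118 and 115 CPM in WT and 135 and 138 CPM in Control, and changed by -0.28 ± 0.042 in IDRmut and -0.23 ± 0.041 in WT. Between IDRmut and WT the 95% interval was -0.14 to 0.039. UBE2C, the ubiquitin-conjugating enzyme of the complex, had 105 and 109 CPM in IDRmut, against 108 and 109.9 CPM in WT and 121 and 125 CPM in Control, with falls against Control of -0.20 ± 0.043 in IDRmut and -0.17 ± 0.042 in WT and an interval of -0.12 to 0.06 between them. Its WT call was lost without Control replicate 2 (-0.15) or WT replicate 1 (-0.16).

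Other members of this step were split. TTK, the kinase that starts checkpoint signalling, ESPL1, the separase that cuts cohesin, and BUB1B, which encodes BubR1, fell in IDRmut vs WT, at -0.30 ± 0.047, -0.33 ± 0.051 and -0.22 ± 0.049. Without WT replicate 1 the change of BUB1B was -0.18 and did not pass. PTTG1, the securin, and BUB3, which carries BUB1 to the kinetochore, were called in no comparison. For IDRmut vs WT their 95% intervals were -0.13 to 0.068 and -0.065 to 0.088.

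Of the 8 cytokinesis genes, 7 fell and none rose in IDRmut vs WT, with a median of -0.28, and 6 fell against Control (median -0.22). In WT vs Control 1 rose, KIF14, at 0.23 ± 0.051, and 1 fell. ANLN, the anillin scaffold of the contractile ring, had 276 and 282 CPM in IDRmut, against 352 and 354 CPM in WT and 348 and 338 CPM in Control, and changed by -0.34 ± 0.035 (adjusted p = 1.59e-06) against WT. KIF4A, a kinesin of chromosome arms and the central spindle, had 142 and 144 CPM in IDRmut, against 174 and 176 CPM in WT and 192 and 190.0 CPM in Control. Its log2 fold changes in IDRmut were -0.29 ± 0.038 against WT and -0.42 ± 0.038 against Control. The fall of KIF4A in WT vs Control was lost when any 1 of the WT or Control libraries was left out, at -0.14 to -0.12. KIF20A, KIF23, RACGAP1 and ECT2, which build the midzone and position the cleavage furrow, fell in IDRmut vs WT, at -0.29 ± 0.038, -0.24 ± 0.042, -0.27 ± 0.042 and -0.18 ± 0.038.

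Other genes of the same machinery were also lower in IDRmut at several steps. Of 33 further kinetochore and centromere genes, 17 fell and none rose in IDRmut vs WT (median -0.17; 11 fell by DESeq2), and 20 fell and none rose in IDRmut vs Control (median -0.23). In WT vs Control, 2 rose and 7 fell (6.06% and 21.2%, against 17.4% and 17.6% of all genes). ZWINT, a kinetochore linker, had 87.7 and 88.9 CPM in IDRmut, against 105 and 101 CPM in WT and 120.3 and 121 CPM in Control. KNTC1, which helps bring dynein to kinetochores, and CENPU, of the inner kinetochore, fell in IDRmut vs WT, at -0.20 ± 0.042 and -0.34 ± 0.062.

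Of 17 other condensin and cohesin genes, 7 fell in IDRmut vs WT, 15 in IDRmut vs Control and 8 in WT vs Control, and none rose in any of these comparisons, although with library totals 5 fell and 2 rose in WT vs Control. SMC1A, a cohesin core subunit, had 371 and 379.6 CPM in IDRmut, against 360.1 and 355 CPM in WT and 468 and 466 CPM in Control, so that both ACK1 groups lay below Control. SMC2 of condensin fell in IDRmut vs WT, at -0.22 ± 0.04, and NCAPG2 of condensin II was -0.087 ± 0.037 there and did not pass. Of 18 further spindle genes, 16 fell in IDRmut vs WT and 14 in IDRmut vs Control, and none rose in either. By DESeq2, 11 fell in IDRmut vs WT and 13 in IDRmut vs Control. In WT vs Control 4 fell and 4 rose (22.2% each), near the 17.6% and 17.4% of all genes. SPAG5, a spindle and kinetochore protein, and the kinesin KIF22 had falls in IDRmut vs Control of -0.42 ± 0.042 and -0.40 ± 0.051. KIF15, another kinesin, had 41.4 and 44.5 CPM in IDRmut, against 42.9 and 43.02 CPM in WT and 60.3 and 56.5 CPM in Control, with overlapping IDRmut and WT libraries, all below Control.

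The next 4 lists are read against the shares of all genes called lower, 14.2% in IDRmut vs WT and 15.9% in IDRmut vs Control. These shares belong to the main edgeR fit. DESeq2 called fewer genes in all, 2341 against 4396 in IDRmut vs WT and 3093 against 5237 in IDRmut vs Control. Counts by DESeq2 or other settings have no matching share here. Of 15 centriole and augmin genes, 3 fell in IDRmut vs WT and 7 in IDRmut vs Control (46.7%, 4 by DESeq2), among them CEP152, STIL and PLK4, which start centriole duplication, with changes of -0.44 ± 0.068, -0.30 ± 0.052 and -0.29 ± 0.051 against Control. Of 17 APC/C subunits and cofactors, 1 fell and 1 rose in IDRmut vs WT, and 4 fell and none rose in IDRmut vs Control (23.5% lower, 2 genes by DESeq2 or with library totals). In IDRmut vs WT 3 fell with GC and length offsets. The riser, ANAPC5, a structural subunit, changed by 0.18 ± 0.041, and FBXO5, an inhibitor of the complex, changed by -0.22 ± 0.054, which did not pass without WT replicate 2 (-0.20). UBE2S, its chain-elongating enzyme, fell in IDRmut vs Control, at -0.21 ± 0.05. Of 17 entry kinases and phosphatases, 4 fell and none rose in IDRmut vs WT (23.5% lower), and 7 fell and 1 rose in IDRmut vs Control (41.2% lower). PKMYT1, a CDK1 inhibitory kinase with 31.6% of its exons overlapped, fell in IDRmut vs WT, at -0.47 ± 0.067. WEE1, which also restrains CDK1, was -0.019 ± 0.048 there and did not pass. CHEK1, a checkpoint kinase, changed by -0.22 ± 0.048, which did not pass without WT replicate 1 (-0.17). Of 16 other cytokinesis genes, 5 fell and 1 rose in IDRmut vs WT (31.2% lower, 2 genes by DESeq2), and 10 fell and 1 rose in IDRmut vs Control (62.5% lower). In IDRmut vs WT, CIT and CEP55 of the midbody fell, with -0.40 ± 0.044 and -0.40 ± 0.039. CHMP2A, an ESCRT-III subunit, rose in IDRmut vs WT, with 0.18 ± 0.047. Its call was lost without IDRmut replicate 2 (0.11), WT replicate 1 (0.16) or WT replicate 2 (0.20).

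Of 22 MuvB, pocket protein, E2F and NF-Y factors, which regulate these genes, 6 fell and 4 rose in IDRmut vs WT (27.3% and 18.2%, against 14.2% and 12.3% of all genes). Against Control 10 fell and 3 rose in IDRmut (1 rose by DESeq2), and 9 fell and 2 rose in WT (1 rose by DESeq2). E2F7, a repressor, had 37.6 and 36.2 CPM in IDRmut, against 52.95 and 53.8 CPM in WT and 60.2 and 60.4 CPM in Control, and the activator E2F1 had 96.8 and 85.5 CPM in IDRmut, against 105 and 109 CPM in WT and 147 and 144 CPM in Control; both fell in IDRmut vs WT, at -0.54 ± 0.052 and -0.23 ± 0.051. MYBL1, a relative of MYBL2, had 53.7 and 54.8 CPM in IDRmut, against 79.3 and 80.8 CPM in WT and 50.2 and 47.4 CPM in Control. It was highest in WT, at 0.71 ± 0.05 against Control. Of 8 CDK inhibitors 4 passed the filter, and all 4 fell in IDRmut vs WT, 2 of them by DESeq2. CDKN1A, which encodes p21, had 42.2 and 38.6 CPM in IDRmut, against 60.3 and 62.2 CPM in WT and 26.6 and 26.9 CPM in Control, above Control in IDRmut (0.59 ± 0.065) and more so in WT (1.20 ± 0.06). CDKN2D and CDKN3 fell in IDRmut vs WT, at -0.55 ± 0.094 and -0.23 ± 0.058, and the call of CDKN3 ended under DESeq2 (-0.23) and without WT replicate 1 (-0.21).

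Genes of G1/S and DNA replication were lower than Control in both ACK1 groups. Of 22, 21 fell in IDRmut vs Control (median -0.32), and 18 fell and 1 rose in WT vs Control (median -0.25). In IDRmut vs WT, 10 fell and none rose (median -0.094). By DESeq2, 17, 14 and 6 fell in these comparisons, in the same order, and none rose. With library totals 17, 15 and 11 fell, and 1, 1 and 0 rose. RRM2, a ribonucleotide reductase subunit with 20.2% of its exons overlapped, had 457 and 461 CPM in IDRmut, against 615 and 617 CPM in WT and 651 and 635 CPM in Control. POLA1, the catalytic subunit of polymerase alpha, had 92.3 and 93.95 CPM in IDRmut, against 107 and 103 CPM in WT and 142 and 145 CPM in Control, and MCM3, a helicase subunit, had 316 and 314 CPM in IDRmut, against 334 and 335 CPM in WT and 425 and 422 CPM in Control. Whether these genes and the mitotic genes differ in their response was not tested.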

How the data were processed

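The members, steps and gene lists were chosen with earlier results of these data known. RNA was captured on poly-T beads, per the labels' protocols. The authors deposited raw counts per gene, not normalized; they used build GRCh38, HISAT2 2.2.1, featureCounts 2.0.1 and SAMtools 1.14, per the submitters' processing notes. No annotation release or strand setting is stated, so reads of overlapping genes could not be separated. Positions came from GENCODE release 29 on GRCh38, which may not be the authors' release, and promoter windows from RefSeq.

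Genes passing edgeR's filterByExpr (minimum count 10, total 15; 16591 of 61487) were scaled by TMM, and all 6 libraries were fitted together by group (edgeR 4.0.16, R 4.3.3). Contrasts were tested with its quasi-likelihood test, adjusted by Benjamini-Hochberg over all 16591 genes with calls at an adjusted p under 0.05; the fitted coefficient of biological variation was 0.0294. Intervals are 95%. CPM are counts normalised to the TMM-scaled library size. The procedure was tested on simulated data with planted changes larger than those of most members, so it does not speak to changes of their size. Library totals ranged from 19128111 to 33540998 counts. Alternatives were other scalings, DESeq2 1.42.0, no filter, only the groups compared, offsets for GC content and length, a replicate block and leaving out each library.

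Values in every library are given for the 2 members of each step with the smallest p in IDRmut vs WT, the called members that rose most (up to 5) and fell most (up to 5) in each contrast, and members called against the direction of most. Of each other list up to 3 genes with the smallest adjusted p are named. CCNB1 was also shown in full, chosen after its values were seen.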

Additional observations from a re-analysis of the deposited data

How the results depend on the processing

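In IDRmut vs Control, upper-quartile scaling gave 2 members higher and a median of -0.22, and library totals 2 and -0.22. In WT vs Control the median was 0.014 with upper-quartile scaling and 0.046 with library totals, and 3 members were lower with library totals, 15 with only the groups compared and 17 with GC and length offsets. In IDRmut vs WT the median with library totals was -0.30. DESeq2 called 3093, 3463 and 2341 genes in IDRmut vs Control, WT vs Control and IDRmut vs WT, against 5237, 5807 and 4396 by edgeR. Of the genes called with library totals, 60.2% were higher in IDRmut vs Control and 67.2% in WT vs Control, against 49.5% and 49.8% with TMM; in IDRmut vs WT it was 38.5% against 46.5%. The cause was not tested.

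Leaving out 1 library at a time gave 3451 to 5522 genes called, 36 to 38 members lower, 1 to 2 higher and medians of -0.27 to -0.23 in IDRmut vs Control. In WT vs Control it gave 3974 to 7028 genes called, 5 to 17 members lower, 8 to 16 higher and medians of -0.031 to -0.0085. In IDRmut vs WT it gave 2590 to 4761 genes called, 40 to 43 members lower, 0 to 1 higher and medians of -0.30 to -0.25. The fewest genes in IDRmut vs Control came without Control replicate 1 and the fewest in IDRmut vs WT without WT replicate 2; a group left with 1 library is assumed to vary like the others.

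With the replicate number as a block, 4836, 5440 and 3966 genes were called in the same order, and members called higher and lower were 1 and 37, 11 and 8, and 1 and 42. The block ended the calls of CDC25C against Control in both groups and of KIFC1 in WT vs Control. The replicate numbers were not taken as pairs: deviations of same-numbered libraries had correlations of -0.021 (WT and Control), -0.040 (IDRmut and Control) and -0.13 (IDRmut and WT). With crossed numbers, an alternative chosen after seeing the data, IDRmut vs WT had 4587 genes called, 1 member higher and 42 lower. No direction of a called member was reversed under the other scalings, the GC and length offsets or DESeq2. Under the other alternatives this was checked only for the members chosen by the rule above, and none reversed. CDC25C, at 7.82 to 12.9 CPM, had an SE of 0.10 in IDRmut vs WT.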
